A study of Mus musculus with 80 samples.

Results

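Microglia that had been enriched from mouse brain on magnetic beads were either taken straight to ribosome pull-down or passed through a second, fluorescence-based sort first, and the ribosome-bound RNA of both preparations was sequenced. The comparison described here sets the 3 autoMACS to Tyto-TRAP libraries (mice 66, 67, and 73) against the 4 autoMACS-TRAP libraries (mice 66, 67, 72, and 73), 7 of the 80 libraries of the series, chosen by their labelled sort method and fraction. All genes of the translatome were members, and 14953 of the 15919 genes in the table had enough reads to be tested.

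All mice carried the Cx3cr1(Jung)-cre/Ert2+;NuTRAP+ genotype and were given tamoxifen, 100 mg/kg by daily intraperitoneal injection, at about 3 months of age. In NuTRAP cells that have recombined, eGFP is fused to the ribosomal protein Rpl10a, and a nuclear envelope label is built on Rangap1. The Cre is driven from the fractalkine receptor gene Cx3cr1, which macrophages at the borders of the brain express as well as microglia, so the tagged ribosomes are not those of microglia alone. No library here came from an animal without the Cre or without tamoxifen. The brain tissue had been dissociated with papain and mechanical force. In autoMACS, cells were held on a magnetic column by beads against CD11b. In autoMACS to Tyto, the cells from the column were then sorted on a cartridge-based sorter (MACSQuant Tyto) for CD11b, CD45, and eGFP. TRAP, translating ribosome affinity purification, then pulled the tagged ribosomes from a homogenate of the cells with an antibody to GFP, and the homogenate before pull-down is the Input. Mouse 72 gave no autoMACS to Tyto library analysed here, and the study's records give mice 66 and 67 as male and mice 72 and 73 as female.

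Microglia are the resident macrophages of the brain parenchyma. They depend on signals through the receptor Csf1r, survey the tissue with motile processes, and clear debris and synapses with the help of complement, Fc receptors, and Trem2. They also react within minutes to handling, chiefly by transcribing immediate-early genes, cytokines, and chemokines, which is why the order and number of sorting steps is a concern for anyone who sequences them. RNA bound to ribosomes stands closer to the proteins being made than total RNA does, and its pull-down adds a selection of its own to the selection made by the sorter.

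The depth of the 7 libraries, summed over the listed genes, was 18319401 to 20168163 counts in autoMACS-TRAP and 11795686 to 16910522 counts in autoMACS to Tyto-TRAP, and the shallowest was that of mouse 73. In a principal component analysis of the 7 libraries, the first component held 42.7% of the variance and separated the sorts. Both libraries of mouse 73 lay at its ends, at -25.9 and 30.5, and both lay apart on the second component (22.1%), at -20.6 and -20.2 against 1.66 to 13.8 for the other 5. The autoMACS-TRAP library of mouse 73 also held 463 CPM (counts scaled to library size) of Malat1 and 266 CPM of Neat1, nuclear long noncoding RNAs, against 20.7 to 25.6 and 30.9 to 47.1 CPM in the other autoMACS-TRAP libraries. The autoMACS to Tyto-TRAP library of mouse 66 held 201 CPM of Malat1. The main results that rest on mouse 73 are therefore given with and without it. CPM values throughout were scaled by edgeR's TMM factors.

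The second sort moved few genes by more than 2-fold and many by less. At an adjusted p under 0.1 (edgeR's quasi-likelihood test, Benjamini-Hochberg over all 14953 genes) and a fold change above 2, 354 genes (2.37%) were called. Of these, 254 (1.70%) were higher after the second sort and 100 (0.669%) were lower. Without the fold threshold, 1653 genes (11.1%) rose and 1720 (11.5%) fell, and log2 fold changes over all tested genes had a median of -0.02. The 2 groups did not overlap in CPM for 1941 genes (13%) in the direction of a higher level and for 2082 genes (13.9%) in that of a lower one. Log2 fold changes are autoMACS to Tyto minus autoMACS throughout, "called" means past both thresholds, and "rose" or "fell" means past the adjusted p alone.

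Most called genes lay below 5 CPM in the group where they were higher. Of the 354, 145 had a mean below 1 CPM in the group where they were higher, 127 lay between 1 and 5 CPM, and 14 lay between 5 and 10 CPM. A further 68 reached 10 CPM, out of 8432 tested genes at that level, and 63 of these were higher and 5 lower. Of the called genes, 70 higher ones had at most 3 counts in every autoMACS library, and 41 lower ones had at most 3 counts in every autoMACS to Tyto library, so no fold is given for any of them. With mouse 73 left out altogether, 152 genes were called, 111 higher and 41 lower, and 86 of them were among the 354.

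**Figure D1:**
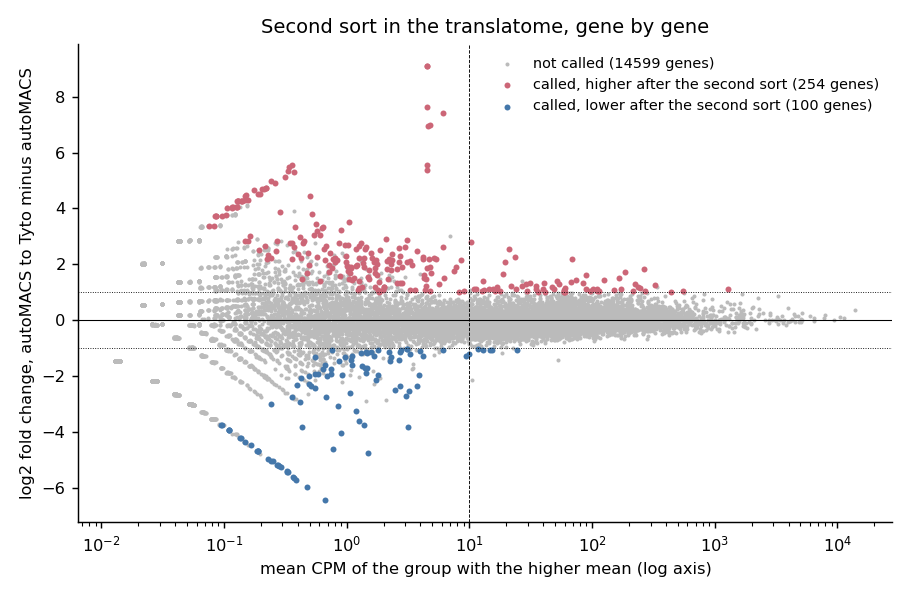
Each point is 1 of the 14953 tested genes, with the mean CPM of the group where it was higher on a log axis and its log2 fold change, autoMACS to Tyto minus autoMACS, on the vertical axis. Dotted lines mark a 2-fold change and the dashed line 10 CPM. The 100 genes called lower lie almost wholly to the left of the dashed line, and to its right 63 of the 68 called genes were higher.

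Polr2a, the largest subunit of RNA polymerase II (gene ID 20020, mm10 chromosome 11, 69734410 to 69758223, minus strand), gave the smallest p of all genes. It was read at 86.3, 79.3, 84.6, and 48.2 CPM in the autoMACS libraries of mice 66, 67, 72, and 73, and at 229, 249, and 325 CPM in the autoMACS to Tyto libraries of mice 66, 67, and 73. The lowest value after the second sort was well above the highest before it, and mouse 73 held both the lowest and the highest of the 7. Polr2a was 3.59-fold higher (log2 1.84 ± 0.15 SE, adjusted p = 1.32e-07), with log2 ratios of 1.40, 1.64, and 2.73 within mice 66, 67, and 73.

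Cbl, Spen, and Nav3 were also among the genes with the largest rises at 10 CPM or above. Cbl, a ubiquitin ligase that ends signalling by receptors such as Csf1r (gene ID 12402, chromosome 9, 44149262 to 44234046), went from 71.9, 54, 72, and 26.4 CPM to 165, 186, and 203 CPM in the same order of mice. Spen, a large RNA-binding corepressor (gene ID 56381, chromosome 4, 141467890 to 141538597), went from 29.8, 31.6, 30.1, and 23.8 CPM to 74.2, 91.4, and 102 CPM. Nav3, a protein that binds microtubules (gene ID 260315, chromosome 10, 109683439 to 110000219), went from 65.5, 62.6, 69.3, and 31.6 CPM to 147, 169.8, and 177 CPM. In each of the 3 genes the groups were far apart and the autoMACS library of mouse 73 was the lowest. Their log2 fold changes were 1.72 ± 0.21 for Cbl (adjusted p = 5.28e-06), 1.63 ± 0.18 for Spen (adjusted p = 2.02e-06), and 1.52 ± 0.20 for Nav3 (adjusted p = 1.16e-05). Atf7, a transcription factor of the CREB family, rose from 5.96 ± 2 CPM (SD, n = 4) to 18.7 ± 1.75 CPM (n = 3), and Zbed6, an intronless transcription factor gene that lies inside another gene, from 4.87 ± 1.69 to 13 ± 1.84 CPM. The interferon-inducible GTPase gene 9930111J21Rik1 rose from 45.6 ± 15.8 to 125 ± 10.6 CPM. Pcdhgb2 rose from 27.7 ± 4.83 to 74.8 ± 29.2 CPM, but genes of the protocadherin gamma cluster share their last exons, and the reads cannot be given to 1 member with certainty.

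The 10 called genes with the highest mean level were all higher after the second sort, and none overlapped between the groups. The highest in level was 9830001H06Rik, which RefSeq lists as Soga1 (gene ID 320706, chromosome 2, 157010442 to 157079265), with 679.9, 620.1, 631, and 442 CPM before and 1127, 1297, and 1416 CPM after. Macf1 and Dst, giant proteins that link actin to microtubules, rose from 267 ± 22.5 to 557 ± 30.4 CPM and from 138 ± 22.3 to 328 ± 20.7 CPM. Huwe1 and Ubr4, giant ubiquitin ligases, rose from 102 ± 15.5 to 236 ± 24.1 CPM and from 107 ± 10.5 to 218 ± 12.1 CPM. Srrm2, a component of nuclear speckles, rose from 217 ± 25.6 to 444 ± 50.3 CPM, and Prrc2c, an RNA-binding protein, from 92.8 ± 8.73 to 226 ± 29.8 CPM. Wdfy3, an adaptor for selective autophagy, rose from 131 ± 15.9 to 269 ± 38.1 CPM, and Polr2a was also among the 10. The log2 fold changes of the genes just named, Polr2a aside, ranged from 1.03 in Ubr4 and 1.03 in Srrm2 to 1.28 in Prrc2c. Among the 63 higher genes at 10 CPM or above, all 63 were higher within each of mice 66, 67, and 73, with median log2 ratios of 0.84, 1.10, and 1.72, so the difference was largest in mouse 73. These genes were called on the same libraries, so their shared direction is in part fixed by that choice.

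**Figure D2:**
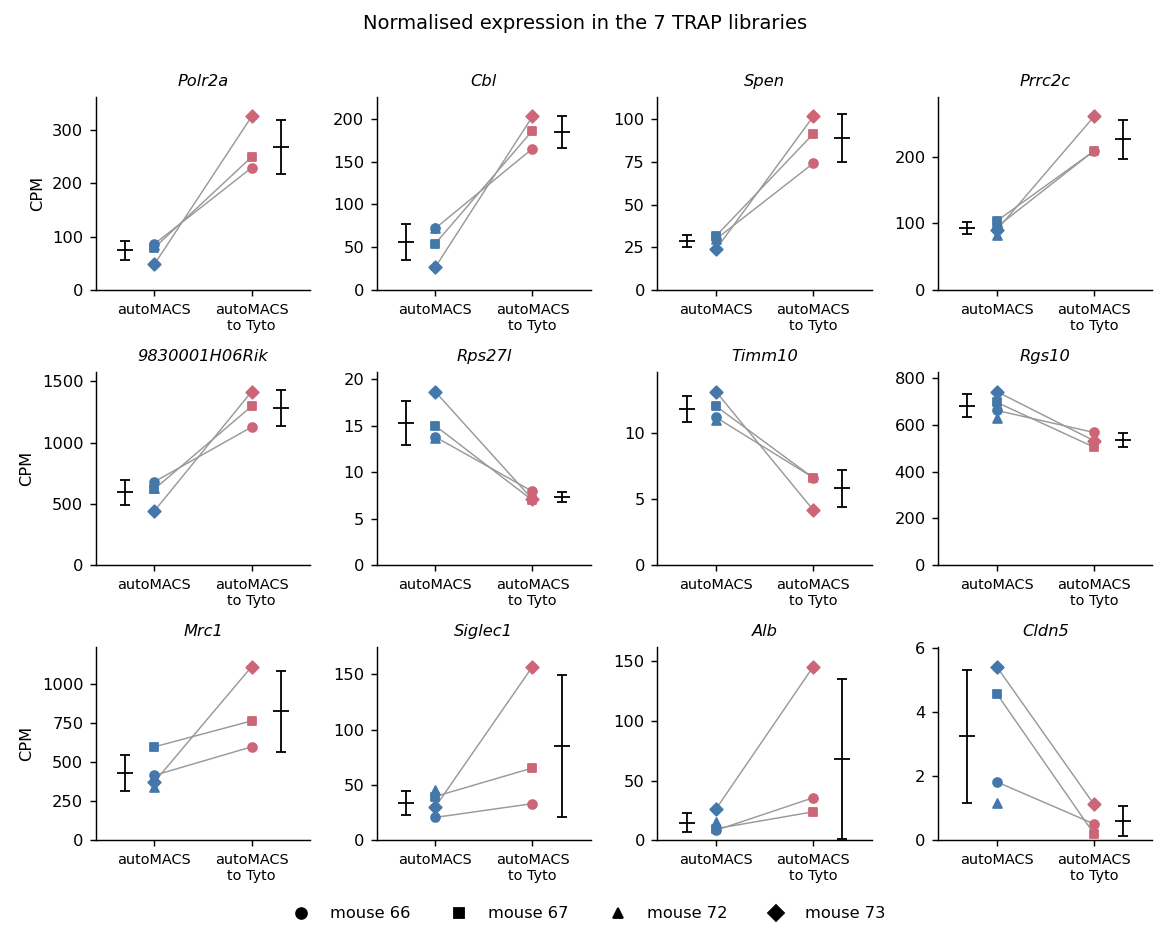
Normalised expression (CPM) of 12 genes in the 4 autoMACS-TRAP and 3 autoMACS to Tyto-TRAP libraries. Symbols mark the mouse, grey lines join the libraries of 1 mouse, and bars give the mean and SD. Polr2a, Cbl, Spen, Prrc2c, and 9830001H06Rik were higher in every autoMACS to Tyto library than in any autoMACS library, Rps27l, Timm10, Rgs10, and Cldn5 were lower in every one, and Siglec1 and Alb reached their highest values, 157 and 145 CPM, in mouse 73.

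Only 5 genes at 10 CPM or above were called lower, and all have short transcripts. Rps27l, a ribosomal protein S27 paralogue induced by p53 (gene ID 67941, chromosome 9, 66946118 to 66949509), was read at 13.8, 15, 13.6, and 18.6 CPM before and at 7.92, 6.97, and 7.08 CPM after the second sort. Every value after the second sort was below every value before it, and the highest of the 7 was the autoMACS library of mouse 73. Rps27l fell by 1.06 on the log2 scale (SE 0.15, adjusted p = 4.34e-05). Timm10, a chaperone of the mitochondrial intermembrane space (gene ID 30059, chromosome 2, 84827021 to 84830213), was read at 11.2, 12.1, 11, and 13.2 CPM before and at 6.64, 6.63, and 4.19 CPM after, again with no overlap, and fell by 1.01 (SE 0.15, adjusted p = 7.1e-05). Gtf2a2, the small subunit of the general transcription factor TFIIA, went from 14.8 ± 2.35 to 7.07 ± 1.43 CPM (log2 fold change -1.06), and 0610009D07Rik, which RefSeq lists as the splicing factor subunit Sf3b6, from 24.5 ± 2.31 to 11.7 ± 1.68 CPM (log2 fold change -1.06). Timm10 sits at the fold threshold, and under DESeq2's size factors its log2 fold change was -0.98. The fifth gene, Cxcl10, overlapped between the groups and is described with the chemokines.

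Log2 fold changes increased with transcript length among genes with a mean of at least 1 CPM. Lengths are the median over a gene's basic GENCODE transcripts, and 10673 of the 10921 genes with a mean of at least 1 CPM had one. In the first of 10 equal bins, that of the shortest transcripts (median 857.5 nt), the median log2 fold change was -0.37, 589 genes fell, and 14 rose. In the last bin, that of the longest transcripts (median 7000 nt), the median was 0.37, 597 genes rose, and 11 fell. The medians climbed through every bin between these, and the bin nearest to no change had a median length of 2907 nt and a median log2 fold change of 0.01. Spearman's rho between the fold change and length was 0.61 across these genes, which are not independent of one another, and rho with GC content was -0.02.

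The gradient was present in each mouse. From the shortest to the longest bin, the median log2 ratio went from -0.20 to 0.27 in mouse 66, from -0.40 to 0.36 in mouse 67, and from -0.54 to 0.49 in mouse 73, with rho of 0.42, 0.56, and 0.59. Mouse 73 gave the steepest and mouse 66 the shallowest slope. Called genes were unevenly spread over the bins. Of the 121 genes called higher, 48 were in the longest bin and 2 to 13 in each of the others, with no order among those, and of the 33 called lower, 12 were in the shortest bin and 0 to 5 in each of the others. The 121 genes called higher at a mean of 1 CPM or above had a median length of 4107 nt and the 33 called lower 1483.5 nt, against 2708 nt over all 10673. Of the genes named above, Macf1 (21177.5 nt), Dst (16776 nt), Ubr4 (15863 nt), and Huwe1 (14373.5 nt) lie far into the longest bin, and Rps27l (537 nt), Timm10 (627 nt), and Gtf2a2 (893 nt) lie in the shortest.

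With the trend on length taken out of the fold changes, 161 genes were past both thresholds, 129 higher and 32 lower, and 151 of these were among the 354. Without the fold threshold, 530 genes were then higher and 452 lower. Polr2a, Cbl, and Spen stayed called, at log2 fold changes of 1.57, 1.59, and 1.13. Macf1 (0.39), Dst (0.65), Huwe1 (0.66), Ubr4 (0.45), and Srrm2 (0.65) did not, nor did Rps27l (-0.62) and Timm10 (-0.61). RNA integrity, library insert size, and the number of cells behind each library were not analysed here, and their part in the gradient was not tested.

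**Figure D3:**
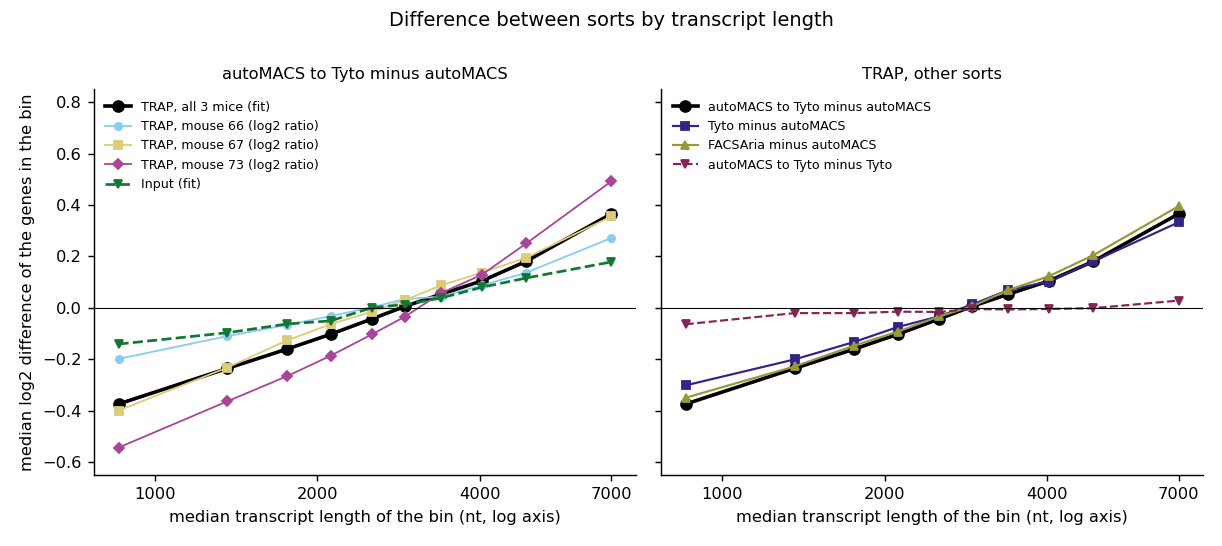
Median log2 difference of genes in 10 bins of transcript length (log axis, nt). The left panel gives autoMACS to Tyto minus autoMACS for the TRAP fit, for the log2 ratio within each mouse, and for the Input fit, and the right panel gives the TRAP fit beside the other sorts. In the TRAP fit the line runs from -0.37 to 0.37, in Input from -0.14 to 0.18, and between autoMACS to Tyto and Tyto from -0.06 to 0.03.

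The Input of the same homogenates held the same order in a smaller range. In a fit of the 14 Input and TRAP libraries of both sorts (12258 genes), the median log2 fold change in Input went from -0.14 in the shortest bin to 0.18 in the longest, and rho with length was 0.31. In that fit 143 genes (1.17%) were called in TRAP, 99 higher and 44 lower, and 61 genes (0.498%) in Input, 18 higher and 43 lower. The test of the difference itself, second sort in TRAP minus second sort in Input, called 0 genes in edgeR (lowest adjusted p = 0.366), with 986 below an unadjusted p of 0.05, and 5 genes by DESeq2's Wald test. The autoMACS Input library of mouse 72 stood apart from the other autoMACS Input libraries. It held 5909 CPM of Malat1 against 116 to 317 CPM, and 23.3 CPM of Polr2a against 69.8 to 83.6 CPM. Without it the test of the difference called 0 genes in edgeR (lowest adjusted p = 0.191). The Input calls, fold changes, and rho are not given without it. Polr2a had log2 fold changes of 1.84 and 1.66 in TRAP and Input, and Cbl of 1.71 and 1.62. Srrm2 (1.03 and 0.29) and Rps27l (-1.05 and -0.18) were further apart in value between the fractions, but neither passed the test of the difference.

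The lists of the basic protein and energy machinery had medians below that of all genes. Of 82 tested genes for cytosolic ribosomal proteins (median length 757.5 nt), all 82 had a log2 fold change below 0, 48 fell, and 1, Rps27l, was called, with a median of -0.26 against -0.02 for all genes. Their summed level was 14895 to 18039 CPM before and 12716 to 14835 CPM after the second sort. Rplp1, a protein of the ribosomal stalk, was read at 279.9, 321, 291, and 363 CPM and then at 274, 235, and 232 CPM (log2 fold change -0.35 ± 0.09, adjusted p = 0.00767). Of 80 nuclear-encoded genes of oxidative phosphorylation (median length 743.5 nt), 61 fell, 0 rose, and 0 were called, with a median of -0.41. Atp5e, a subunit of ATP synthase, fell from 32.1 ± 4.23 to 17.8 ± 1.91 CPM (log2 fold change -0.85 ± 0.13, adjusted p = 9.49e-05). Ndufa4, a mitochondrial respiratory chain subunit, fell from 49.2 ± 4.63 to 31.2 ± 3.33 CPM (log2 fold change -0.66). Of 38 proteasome subunits (median length 1398.5 nt), 18 fell and 1 rose (median -0.21). With the length trend taken out, the medians of the 3 lists were 0.08, -0.11, and -0.02, and the numbers that fell were 3, 5, and 1. Ribosomal protein genes have many processed pseudogenes with which reads may be shared.

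Several genes of the disease-associated microglia programme fell as well. Among its 26 genes (median length 1436.75 nt), 6 fell and 0 rose (median log2 fold change -0.11), where 11.5% of all genes fell. In the length bin of 1126 to 1565 nt, all genes had a median of -0.24 and 352 of 1067 fell, so the list did not fall more than genes of its length. Tyrobp, the signalling adaptor of Trem2, went from 498, 555, 491, and 602 CPM to 419, 379, and 391 CPM (-0.44 ± 0.10, adjusted p = 0.00315). Trem2, a lipid-sensing receptor, went from 1391 ± 57.5 to 1145 ± 58.5 CPM (-0.28 ± 0.09), and the tetraspanin Cd63 from 400.3 ± 33.2 to 315 ± 22 CPM (-0.35 ± 0.10). Gpnmb, a transmembrane glycoprotein of lipid-laden macrophages, was the 1 called member, at 1.71, 4.12, 5.24, and 3.96 CPM before and 1.02, 0.265, and 0.931 CPM after (-2.35 ± 0.66, adjusted p = 0.0146), a level of few reads. Apoe did not pass the test (0.21 ± 0.20, adjusted p = 0.536). Without the length trend, 1 member of the list fell.

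**Figure D4:**
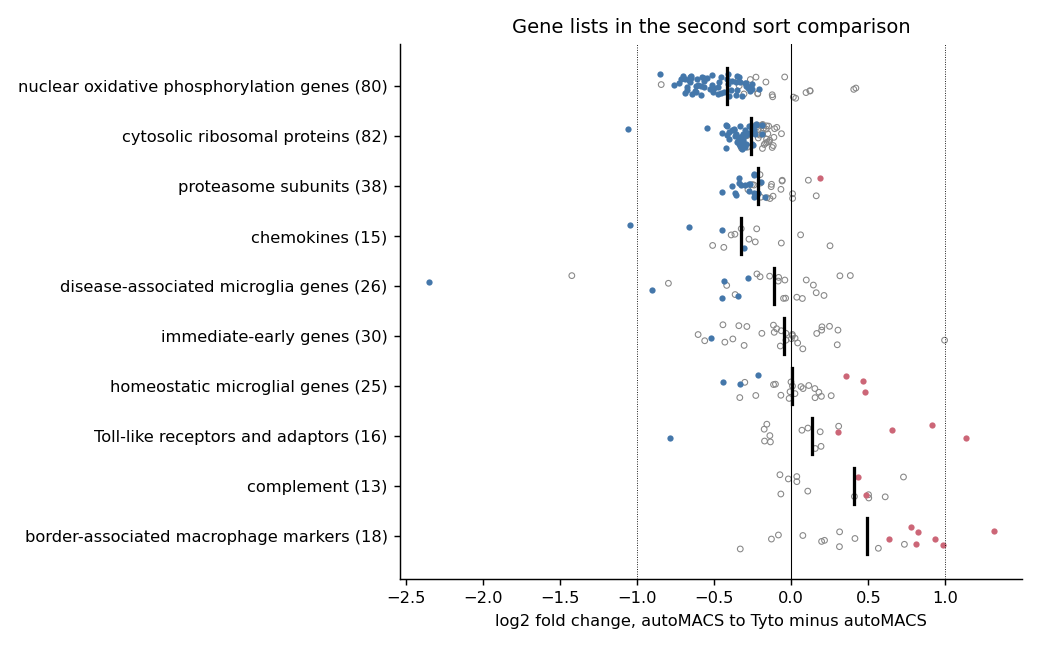
Log2 fold change, autoMACS to Tyto minus autoMACS, of each tested member of 10 gene lists, with the number tested in parentheses and the median as a black bar. Filled points passed an adjusted p under 0.1, red if higher and blue if lower, and dotted lines mark a 2-fold change. Medians run from -0.41 for oxidative phosphorylation to 0.49 for the markers of border-associated macrophages.

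The genes that define microglia differed by less than 2-fold. Of 282 microglial markers chosen by the study, 0 were called, 42 rose, and 34 fell, with a median log2 fold change of 0.01, and these shares are near those of all genes. Of the 282, 55 were higher and 54 lower without overlap between the groups, against 13% and 13.9% of all genes, so both shares are above those of all genes. The summed level of the 282 was 229057 to 236299 CPM before and 237503 to 249179 CPM after the second sort, with no overlap. Tmem119 (3324 to 3900.1 CPM before, 3167 to 3488 CPM after), the purinergic receptor P2ry12 (2812 to 3439.98 and 3074 to 3197 CPM), and Siglech (1372 to 1499 and 1332 to 1379 CPM) overlapped between the groups, with adjusted p of 0.381, 0.954, and 0.294. Csf1r did rise, from 11561, 10929.5, 11643, and 9871 CPM to 13760.5, 13901, and 14488 CPM (0.35 ± 0.07, adjusted p = 0.00157). Stab1, a scavenger receptor that is also a marker of border macrophages, rose from 1322 ± 74.3 to 2268 ± 283 CPM (0.78 ± 0.14, adjusted p = 0.000464). In the length bins that hold Csf1r (4285.5 nt) and Stab1 (7999 nt), the medians of all genes were 0.10 and 0.37.

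The antigens on which the cells were sorted were also compared. Itgam, which encodes CD11b and was the target in both sorts, rose from 2912, 2869.8, 3059, and 2804 CPM to 3918, 3766, and 4114 CPM (0.43 ± 0.09, adjusted p = 0.00204). Its length (4175 nt) lies in the same bin as that of Csf1r, where 219 of 1067 genes rose. Ptprc, which encodes CD45 and was selected only in the second sort, was 443 to 555 CPM before and 559 to 613 CPM after (0.24 ± 0.13, adjusted p = 0.226). Cx3cr1, whose locus drives the Cre, was 3696 to 4237 CPM before and 4420.2 to 4601 CPM after (0.15 ± 0.08, adjusted p = 0.197). For all 3 genes the groups did not overlap, but Itgam alone passed the test. The host genes of the tag moved in opposite directions. Rangap1 rose from 433, 383, 468, and 372 CPM to 577, 562, and 580.04 CPM (0.47 ± 0.09, adjusted p = 0.00111), and Rpl10a fell from 286, 307, 334, and 368 CPM to 301, 269.6, and 259.8 CPM (-0.23 ± 0.08, adjusted p = 0.0677), with an overlap between the groups. Reads of these genes can come from the transgene as well as from the native gene. Without the length trend, Rpl10a was at 0.15 (adjusted p = 0.371).

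Markers of border-associated macrophages, the macrophages of the meninges and perivascular spaces, leaned higher after the second sort, and mouse 73 carried much of that difference. Of 18 markers, 7 rose, 0 fell, and 1 was called, with a median log2 fold change of 0.49. The 7 that rose have transcripts of 2754 to 8024 nt. The 3 markers with values below 0 were Pf4 (-0.33, 499.5 nt), Cd209g (-0.13, 1169 nt), and Ms4a7 (-0.08, 1334 nt), and none of these passed the test. The list has a median length of 2823.5 nt, and all genes in the bin of 2709 to 3121 nt had a median of 0.01. Against autoMACS-TRAP, the median of the list was 0.16 in Tyto-TRAP and -0.31 in FACSAria-TRAP. The summed level of the 18 was 2974 to 3918 CPM before and 4115 to 6558 CPM after. Mrc1, the mannose receptor CD206 (gene ID 17533, chromosome 2, 14229414 to 14332023), was read at 416, 599, 339.6, and 374 CPM and then at 599, 765, and 1112 CPM (0.93 ± 0.30, adjusted p = 0.034). Cd163, the hemoglobin scavenger receptor, was read at 121, 174, 99.8, and 122 CPM and then at 152, 227, and 388 CPM (0.98 ± 0.34, adjusted p = 0.0503). Siglec1, a sialic acid receptor, was the called gene, at 20.7, 39.6, 45.6, and 29.95 CPM and then 33.2, 65.4, and 157 CPM (1.32 ± 0.44, adjusted p = 0.0415). In each of the 3 genes the autoMACS to Tyto library of mouse 73 was the highest of the 7, that of mouse 67 was also above the range of autoMACS, and that of mouse 66 lay within that range or at its upper end. Lyve1, found on the same cells, had 37.2 to 85.3 CPM and then 52.9 to 142 CPM and did not pass the test (adjusted p = 0.17). Without the autoMACS to Tyto library of mouse 73, the median of the list was 0.06, 1 member rose, and 0 were called. With mouse as a block over the 24 libraries, 2 members rose, and over the 7 libraries alone 7 rose and 1 fell. In bulk samples, more cells of a type and more RNA per cell cannot be told apart.

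Few immediate-early genes, which cells switch on during handling, and few cytokines passed the test. Of 30 immediate-early genes, 0 rose, 0 were called, and 1 fell (median log2 fold change -0.05). Fos, a subunit of AP-1, was read at 4475, 4152, 4717, and 3765 CPM before and at 4079.9, 4600.2, and 4158 CPM after the second sort (0.00 ± 0.16). Jun (-0.06 ± 0.14) and Egr1 (0.01 ± 0.22) were as close. Btg1, an antiproliferative factor, was the member that fell, from 425 ± 20.3 to 297 ± 9.74 CPM (-0.52 ± 0.12, adjusted p = 0.00302). Of 13 cytokines (median length 1357 nt), 11 had a log2 fold change below 0 (median -0.25). All genes in the length bin of 1126 to 1565 nt had a median of -0.24. Il18 alone fell (18.2 ± 2.12 to 13.8 ± 2.93 CPM, adjusted p = 0.0632), and neither Tnf (-0.40 ± 0.33, adjusted p = 0.46) nor Il1b (-0.10 ± 0.38, adjusted p = 0.911) passed the test. Among 22 heat shock proteins, 2 fell and 0 rose, with a median of 0.07.

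Chemokines had a lower median (-0.32 over 15 genes), and 4 of them fell. Their median length was 1223.5 nt, and in the bin of 1126 to 1565 nt all genes had a median of -0.24 and 352 of 1067 fell. Ccl9 went from 97.2, 105, 107, and 111 CPM to 62.5, 57.9, and 79.2 CPM (-0.66 ± 0.13, adjusted p = 0.00092), with no overlap. Ccl6 and Cxcl16 fell by less than 2-fold (-0.45 and -0.31). Cxcl10, an interferon-induced chemokine, was called, but its libraries were 5.58, 6.41, 26.8, and 13 CPM before and 6.26, 4.78, and 7.92 CPM after, so the difference lay in mice 72 and 73 (-1.05 ± 0.42, adjusted p = 0.0911). Without the autoMACS library of mouse 72 it was -0.41 (adjusted p = 0.497), and with mouse as a block over the 24 libraries -0.33 (adjusted p = 0.437). Ccl3 (-0.39, adjusted p = 0.356) and Ccl4 (-0.51, adjusted p = 0.218) did not pass the test.

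Several receptors of innate immunity rose. Of 16 Toll-like receptors and adaptors (median length 3154.25 nt), 4 rose and 1 fell (median log2 fold change 0.13). In the length bin of 3122 to 3688 nt, all genes had a median of 0.05 and 133 of 1067 rose. Tlr9, which senses DNA, went from 193, 174, 227, and 129.9 CPM to 272, 313, and 268 CPM (0.65 ± 0.14, adjusted p = 0.00214). The flagellin receptor Tlr5 rose from 19.8 ± 3.82 to 37.4 ± 8.75 CPM (0.91 ± 0.15), the lipopolysaccharide receptor Tlr4 from 112 ± 6.06 to 139 ± 14.1 CPM (0.31 ± 0.08), and the RNA sensor Tlr8 from 6.6 ± 2.86 to 14.5 ± 4.06 CPM (1.13 ± 0.32). Tlr8 alone was called, but it overlapped between the groups. Its log2 ratios within mice 66, 67, and 73 were 0.72, 0.51, and 1.78. Ly96, the small coreceptor of Tlr4 (530.5 nt), fell from 14 ± 2 to 8.12 ± 1.44 CPM (-0.79 ± 0.15, adjusted p = 0.000966). Of 13 complement genes, 2 rose, Itgam among them (0.43), and 0 were called, where 11.1% of all genes rose. The median of that list was 0.41, while C1qa and C1qb were at -0.07 and -0.07 and did not pass the test. Of 8 Rgs genes, which shorten G-protein signals, 4 fell, among them Rgs10 (662, 696, 630.1, and 743 CPM, then 567, 505, and 532 CPM) and Rgs2 (1036 ± 64.2 to 827 ± 55.7 CPM). The others were Rgs3 (-0.55) and Rgs16, which had almost no reads.

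Cldn5, Gfap, Aqp4, and Mog, genes that define other brain cells, were read at low levels in both groups. The study's endothelial, astrocytic, and oligodendrocytic lists as wholes were not low, at sums of 3957 CPM or more in each library. Of 233 endothelial markers chosen by the study, 22 were called lower and 4 higher, with a median log2 fold change of -0.12, where 0.669% and 1.70% of all genes were called lower and higher. Among genes below 1 CPM, 3.76% were called in either direction, and between 1 and 5 CPM 7.59%. Of the 233, 29 were lower and 17 higher without overlap between the groups, against 13.9% and 13% of all genes. The share of lower ones is near that of all genes, and the share of higher ones is below it. Cldn5, the tight junction protein of brain endothelium, was read at 1.82, 4.58, 1.16, and 5.42 CPM before and at 0.511, 0.199, and 1.12 CPM after the second sort (-2.53 ± 0.95, adjusted p = 0.0716). Podxl, a sialomucin of the vessel surface, had 2.28, 3.26, 1.32, and 5.68 CPM before and 0.383, 0.133, and 0.0931 CPM after (-3.82 ± 0.98, adjusted p = 0.00819). Vwf, the von Willebrand factor (1.54 to 4.17 CPM before and 0.559 to 1.28 CPM after), Ltbp4 (2.73 to 5.04 and 0.511 to 2.33 CPM), Ptprb (1.38 to 4.17 and 0.265 to 0.703 CPM), Ramp2 (1.05 to 3.07 and 0.133 to 0.639 CPM), and Ly6c1 (0.772 to 2.86 and 0.383 to 0.531 CPM) did not overlap between the groups. Mice 67 and 73 had the highest autoMACS values of Cldn5, Podxl, Vwf, Ltbp4, and Ptprb. With 1 library left out at a time, 6 to 24 members were called lower, with 6 without the autoMACS to Tyto library of mouse 67, 7 without the autoMACS library of mouse 73, and 11 without the autoMACS to Tyto library of mouse 66 or of mouse 73. Without mouse 73 altogether, 3 were lower and 3 higher. With at least 10 counts in every library, 110 members were tested and 0 were called lower. The list also holds genes that microglia express, and its summed level, 8854 to 9378 CPM before and 9670 to 9874 CPM after, was not lower.

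Cd93 is on both the endothelial and the macrophage list and differed from the vessel genes in direction. It was read at 14.4, 21, 13.9, and 13.5 CPM before and at 22.3, 28.6, and 53.3 CPM after, with no overlap (1.13 ± 0.29, adjusted p = 0.00788). Without the autoMACS to Tyto library of mouse 73 it was at 0.70 (adjusted p = 0.135). Myo5a, a vesicle motor on the macrophage list, rose from 29.5 ± 2.57 to 59.95 ± 8.5 CPM (1.02 ± 0.33, adjusted p = 0.0336), and with mouse as a block over the 24 libraries it was 0.96 (adjusted p = 0.108). Of the 138 astrocytic markers of the study, 9 were called higher and 1 lower, of 191 oligodendrocytic markers 5 and 4, and of 97 neuronal markers 3 and 1. Over all genes, 1.70% were called higher and 0.669% lower. Below 1 CPM, 91 of 3854 genes were called higher and 54 lower, and between 1 and 5 CPM 89 of 1673 higher and 38 lower. The called markers were not compared with genes of their own level, so nothing is read from these few calls. The astrocytic list summed to 4200 to 6049 CPM before and 4597 to 7161 CPM after, the oligodendrocytic list to 3957 to 4000 and 4067 to 4136 CPM, and the neuronal list to 71.5 to 86.7 and 77.2 to 102 CPM. Gfap, which defines astrocytes, was at 0 to 0.417 CPM in all 7 libraries, Aqp4, the astrocytic water channel, at 0 to 0.469 CPM, and Mog, a myelin protein, at 0 to 0.286 CPM.

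Several genes known from other organs were higher in the autoMACS to Tyto than in the autoMACS libraries, above all in mouse 73, and Alb and Fabp4 among them were chosen after their values were seen. Alb, serum albumin made by liver (gene ID 11657, chromosome 5, 90460889 to 90476603), was read at 8.32, 9.73, 15, and 26 CPM before and at 35.6, 23.8, and 145 CPM after the second sort (2.19 ± 0.59, adjusted p = 0.0113). Car3, a carbonic anhydrase abundant in fat and muscle (gene ID 12350, chromosome 3, 14863538 to 14872373), had 3.7, 2.52, 5.52, and 7.81 CPM and then 12.3, 10.1, and 48.8 CPM (2.25 ± 0.56, adjusted p = 0.00645). Fabp4, the fatty acid binding protein of adipocytes, had 2.45, 2.98, 4.41, and 7.97 CPM and then 7.99, 7.43, and 43.1 CPM, and Hp, haptoglobin, had 0.456, 1.09, 2.65, and 3.91 CPM and then 5.37, 3.32, and 14.6 CPM. Hba-a1, an alpha globin of red cells whose near copy Hba-a2 may share its reads, had 1.2 to 3.39 CPM before and 2.65 to 12.6 CPM after. All 5 genes were called, and mouse 73 was the highest of each group in all 5. Without its autoMACS to Tyto library, Alb was at 1.00 (adjusted p = 0.305), Car3 at 1.19 (adjusted p = 0.186), Fabp4 at 0.78 (adjusted p = 0.415), Hp at 1.09 (adjusted p = 0.301), and Hba-a1 at 1.19 (adjusted p = 0.274), and none of the 5 was called. In the Input of the same homogenates none of the 5 was called. Alb Input was at 12.7, 15.3, 119, and 121 CPM in autoMACS and at 488, 83.4, and 156 CPM in autoMACS to Tyto, in the same order of mice. Among the autoMACS to Tyto Input libraries, mouse 66 was the highest in Alb and Hp. Mouse 73 was the highest in Car3, Fabp4, and Hba-a1 (620 CPM). All 5 genes were also higher in FACSAria-TRAP than in autoMACS-TRAP. Alb was at 82.5 ± 21.8 CPM in FACSAria-TRAP (log2 2.47 against autoMACS-TRAP, adjusted p = 0.00243) and at 14.7 ± 7.16 CPM in Tyto-TRAP (-0.02), and Car3 at 20.5 ± 5.58 CPM (2.06, adjusted p = 0.00655) and 6.14 ± 3.95 CPM (0.30, adjusted p = 0.752).

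Some called genes overlap a neighbour, and at 3 loci the sum over the locus changed less than the called gene. In all, 58 of the 354 called genes overlap another tested gene, counted over whole gene spans on either strand. Shared exons were not counted. At the Ugt1a cluster, whose 8 tested genes, glucuronosyltransferases, share their last exons (chromosome 1, 88055411 to 88220002), 7 genes had almost no reads in 6 of the 7 libraries. In the autoMACS to Tyto library of mouse 73, Ugt1a1 was at 13.9 CPM and Ugt1a2 and Ugt1a5 at 13.5 CPM each, while Ugt1a7c, at 161 to 179 CPM in the other 6 libraries, was at 78.2 CPM. The sum over the 8 genes was 170 ± 9.1 CPM (SD, n = 4) before and 168 ± 4.91 CPM (n = 3) after the second sort.

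BC096441, which RefSeq lists as the Tnfsf12-Tnfsf13 read-through gene Tnfsfm13 (gene ID 619441, chromosome 11, 69682577 to 69696098), went from 2.51, 4.23, 4.19, and 3.33 CPM to 20.1, 20.5, and 22.8 CPM (2.56 ± 0.31, adjusted p = 5.84e-06), one of the largest rises at 10 CPM or above. Tnfsf12, the cytokine TWEAK, which lies on the same strand within it, fell (log2 fold change -0.61). The sum over BC096441, Tnfsf12, and Tnfsf13 was 69.5 ± 2.15 CPM before and 66.2 ± 1.42 CPM after. Tnk1, a kinase that overlaps Plscr3 on the opposite strand, was at 0, 0, 0, and 0.104 CPM before and at 5.88, 6.5, and 5.87 CPM after, and Plscr3, a phospholipid scramblase, fell from 66.3 ± 2.94 to 52.1 ± 3.76 CPM (-0.35 ± 0.12, adjusted p = 0.0536). Their sum was 66.3 ± 2.98 CPM before and 58.1 ± 4 CPM after. Whether the reads were divided among overlapping genes in the same way in every library was not tested.

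**Figure D5:**
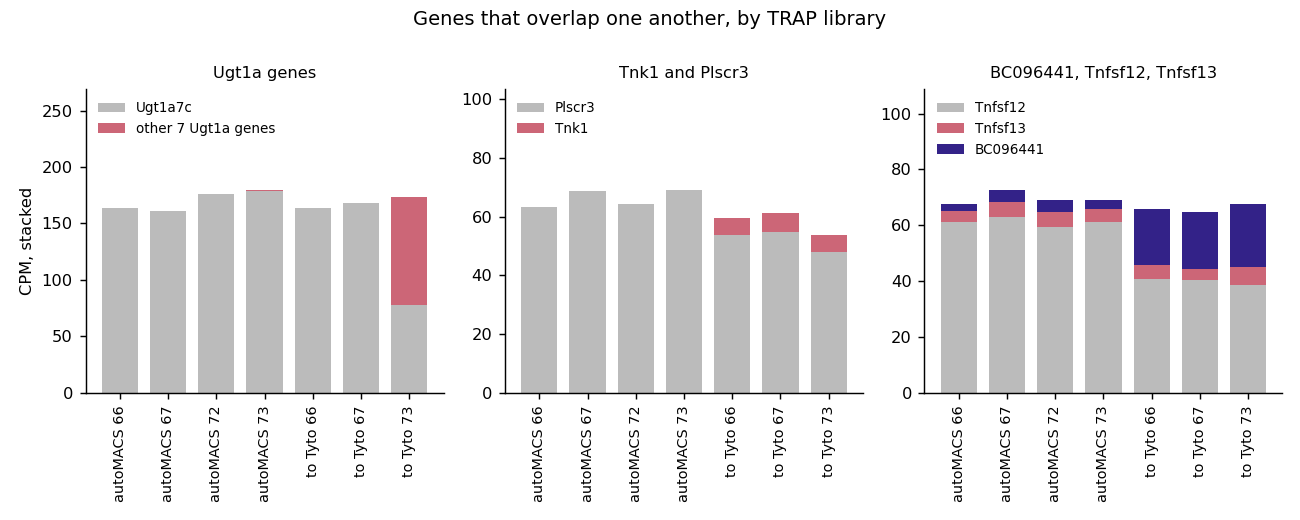
Stacked CPM of genes that overlap one another, for the 4 autoMACS-TRAP and 3 autoMACS to Tyto-TRAP libraries. In the autoMACS to Tyto library of mouse 73, 7 other Ugt1a genes take the place of part of Ugt1a7c at a like sum, and BC096441 takes the place of part of Tnfsf12 in all 3 autoMACS to Tyto libraries.

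The full route, beads and then cartridge, was also set against the cartridge sort alone, which shares no mouse with it. In the same fit, autoMACS to Tyto-TRAP differed from Tyto-TRAP (n = 5) in 0 called genes by edgeR, with 2 past the adjusted p at any fold and 1536 below an unadjusted p of 0.05, while DESeq2's Wald test called 90. Against FACSAria-TRAP (n = 4) edgeR called 0 genes, with 1600 below an unadjusted p of 0.05. The median log2 difference to Tyto-TRAP went from -0.06 in the shortest bin of transcripts to 0.03 in the longest. Tyto-TRAP against autoMACS-TRAP gave 296 called genes (1.98%) and FACSAria-TRAP against autoMACS-TRAP 543 (3.63%), and from the shortest to the longest bin their medians went from -0.30 to 0.33 and from -0.35 to 0.40. These contrasts share the autoMACS-TRAP libraries with the one described here, so their likeness to it is not independent of those 4 libraries. Polr2a was at 276 ± 33.8 CPM in Tyto-TRAP and 308 ± 19.6 CPM in FACSAria-TRAP, beside 268 ± 50.6 CPM in autoMACS to Tyto-TRAP and 74.6 ± 17.8 CPM in autoMACS-TRAP. Cbl stood at 167 ± 22.8 and 188 ± 9.06 CPM, beside 185 ± 18.8 and 56.1 ± 21.5 CPM.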

How the data were processed

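Expected counts per gene were deposited by the authors, who sequenced stranded poly(A) libraries, aligned the reads to mm10 in Strand NGS, and removed duplicate reads. The deposited log2 values, which the authors normalised with DESeq2, served an alternative only. Libraries were grouped by the labels. Expected counts were rounded, and the 24 TRAP libraries of the sort comparison were fitted by group in edgeR 4.0.16 (TMM, quasi-likelihood), with genes of more than 5 counts in every library of at least 1 group. SEs are the log2 fold change over the root of F. Named genes were the 10 largest changes per direction without overlap at 10 CPM or above, the 10 called genes of highest level, and list members. Members and lists were chosen with earlier results of these data known. Mouse numbers pair animals by the labels, and deviations of libraries from the same mouse correlated at 0.12, 0.13, and -0.02 (mice 66, 67, and 73, 8256 genes). No library pair agreed within counting noise. The study's supplement lists the same library metrics for the autoMACS to Tyto Input and TRAP libraries of mouse 73, whose deposited counts differ, and which row is right is not known. DESeq2 1.42.0 and limma 3.58.1 were alternatives. The fit was tested on simulated counts. Each group is 3 or 4 mice, and precision is limited by the depths given above. Genes encoded by the mitochondrion were a list with 0 genes in the table. Some genes that these rules name are not reported here.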

Additional observations from a re-analysis of the deposited data

Results flagged for a closer look

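In the autoMACS-TRAP group, Dixon's test on 4 libraries was run for 53 genes, and 3 had a library far from the others, where chance alone flags about 1 in 20. Malat1 stood at 463 CPM in mouse 73, beside 20.7 to 25.6 CPM in the other 3 mice. Neat1 stood at 266 CPM in the same library, beside 30.9 to 47.1 CPM. Cd93 stood at 21 CPM in mouse 67, beside 13.5 to 14.4 CPM.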

How the results depend on the processing

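The 354 called genes (254 higher, 100 lower) became 112 (95 and 17) with at least 10 counts in every library, 229 (170 and 59) with only the 2 groups fitted, 239 (188 and 51) with the 4 sorted groups, 204 (164 and 40) at an adjusted p under 0.05, and 3373 (1653 and 1720) with no fold threshold. Leaving out 1 library gave 182 to 382 called genes, 96 to 293 higher and 39 to 130 lower. The lowest count, 182, was without the autoMACS to Tyto library of mouse 73 (96 higher), and the count of lower genes was 39 without the autoMACS library of mouse 73 and 53 without the autoMACS to Tyto library of mouse 67. Alternatives added after the data were seen gave 152 (111 and 41) without mouse 73 and 161 (129 and 32) without the length trend. With mouse as a replicate block, 371 genes were called over 24 libraries, 267 of them among the 354, and 250 (191 and 59) over the 7. DESeq2's size factors gave 363 genes, its Wald test 498, limma 326, no filter 374, and thinning to equal depth 302. Rpl10a turned to 0.15 without the length trend, and Malat1, which did not pass the test (-0.58), to -2.0 without the autoMACS to Tyto library of mouse 66, to 1.91 without the autoMACS library of mouse 73, and to 2.33 without mouse 73. The test of TRAP against Input gave 5 genes by DESeq2's Wald test and 0 to 3 with 1 library left out, and the comparison with Tyto-TRAP 90 by DESeq2, 0 to 6 with 1 library left out, and 2 with no fold threshold. The cause of these shifts was not tested. Genes below 1 CPM are limited by depth.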
